A study of Sus scrofa with 11 samples.

Results

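The immediate early transcription factors were read in the *M. semimembranosus*, a hind leg muscle, of 11 pigs fed a high protein (HP) or a low protein (LP) diet. They were chosen by name, as every non-control probe set to which the platform annotation gives 1 gene symbol out of a list of 9: FOS, JUN, JUNB, JUND, EGR1, IER2, IER3, MYC and KLF6. A probe set is a group of short probes on the array that together give 1 expression level. Of the 9 genes, 6 had such a probe set, and JUNB, JUND and KLF6 had none and were dropped. FOS, JUN, IER2, IER3 and MYC each had 1 probe set and EGR1 had 3, which makes 8 of the 23999 probe sets tested and 6 of the 6765 genes with a single symbol. The name of the group fits FOS, JUN, EGR1 and MYC, whose proteins bind DNA, better than IER3, a membrane-associated stress protein induced with them.

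All pigs were purebred Duroc gilts of about 10 weeks at the start, fed without restriction for 63 days on diets of equal digestible energy (14 MJ/kg). The HP diet (6 pigs) held 217 g/kg crude protein and 13.0 g/kg lysine, and the LP diet (5 pigs) 128 and 7 g/kg. RNA of each pig went on an Affymetrix Porcine array of its own, and muscle was placed in preservative within 10 min of slaughter. The pen, weight block and slaughter date of each pig were not known here, so pen and date cannot be told apart from diet in any difference below. The effect of transport and of handling at slaughter on these genes was not tested.

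Immediate early genes are transcribed within minutes of a stimulus, such as a growth factor, stretch, contraction, calcium entry or stress, by factors that already sit in the cell and need no new protein. Their RNAs are short-lived and many of their proteins are transcription factors that switch on a later set of genes. FOS and JUN proteins pair to form AP-1, EGR1 is a zinc finger factor, and MYC pairs with MAX and drives growth and ribosome synthesis. In skeletal muscle FOS and EGR1 RNAs are known to rise after a single bout of contraction.

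The deposited values are log2 expression levels, on which a step of 1 is a doubling, and all 11 arrays share a median of 6.72. The share of probe sets brighter than all 23 negative controls of their array was 74.9% to 85.3%. The tissue was as labelled, since all 8 measured skeletal fibre markers lay above the controls on all arrays, with a mean level of 13.0 to 14.0 in HP and 13.1 to 13.6 in LP. The hybridisation spike-ins, which are not pig RNA, had an LP minus HP difference of -0.26 (exact permutation p = 0.186). The gaps between the 3′ and 5′ signals of actin and GAPDH, which widen with RNA breakdown, differed by -0.43 (exact permutation p = 0.123) and -0.09 (exact permutation p = 0.227). Over the 11 arrays the actin gap was large, 5.12 to 6.46 log2 units, and the GAPDH gap small, 0.42 to 0.78. HP replicates 1, 2 and 4 had the brightest upper end and the highest spike-in means, and values without these 3 arrays, which an earlier analysis of the same data had singled out, are given where they change a call. The tissue is a mixture of cells, so that fewer cells of a type and less RNA per cell cannot be told apart.

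None of the 8 probe sets passed limma's test between the diets at the study's threshold, an unadjusted p of at most 0.05, where 5.11% of all probe sets passed, 2.15% higher and 2.97% lower in LP. In the exact permutation test none passed either, with p from 0.126 for MYC to 0.729 for the dimmest EGR1 probe set, and the smallest p this design allows is 0.00216. The HP and LP pigs overlapped on each of the 8, while 0.579% of all probe sets had groups that did not overlap. The LP mean was above the HP mean on 6 probe sets, those of FOS, JUN, EGR1 and MYC, and below it on 2, those of IER2 and IER3. The median difference, LP minus HP, was 0.29 against -0.02 over all probe sets tested. On FOS, EGR1 and IER3 pigs of the same diet lay farther apart than on most probe sets of the array.

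**Figure D1:**
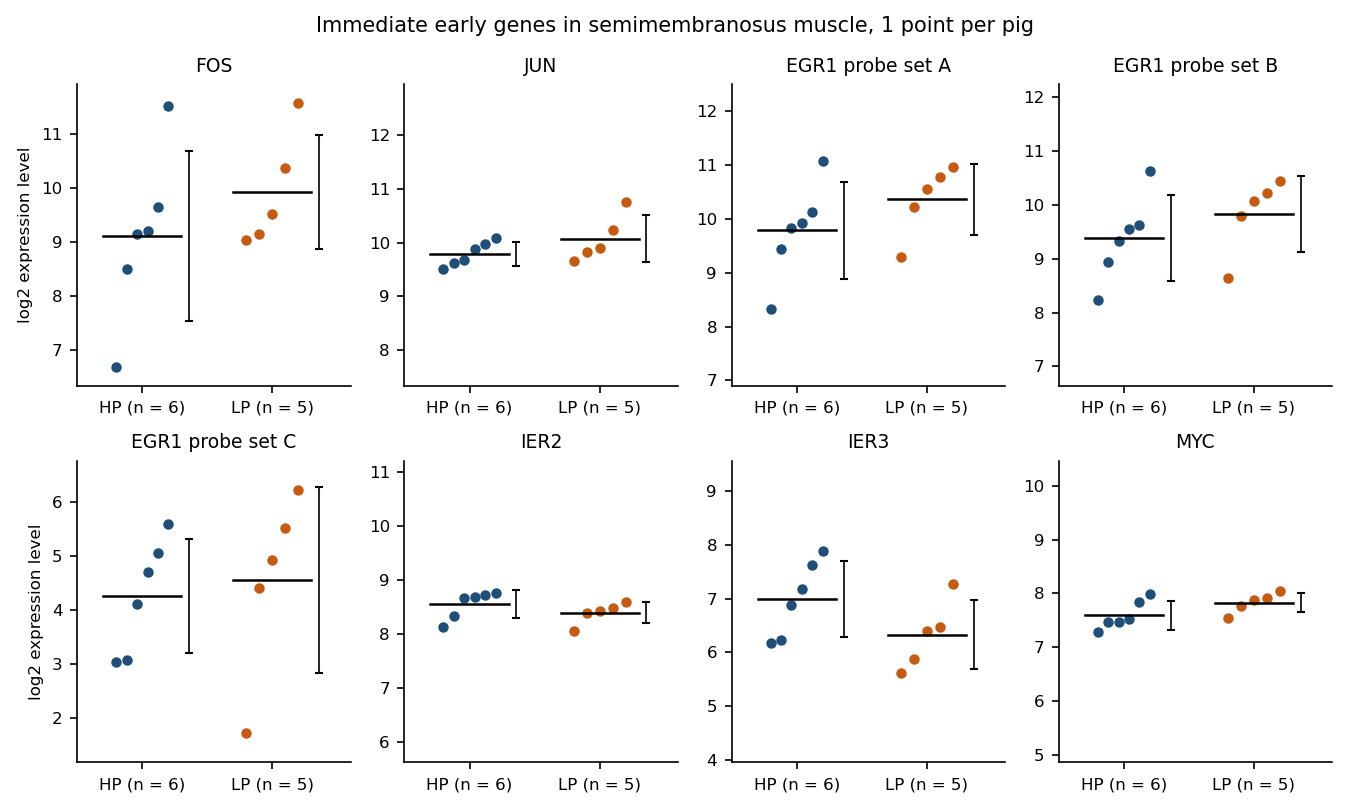
Log2 expression level (y axis, each panel spanning the same number of log2 units) of the 8 probe sets in HP (n = 6) and LP (n = 5) muscle. Each point is a pig, horizontal lines are means and bars beside them are SDs. EGR1 A, B and C are its brightest, middle and dimmest probe set. FOS runs from 6.67 to 11.53 within HP, whereas IER2 and MYC stay within 1 log2 unit over all pigs.

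FOS, the AP-1 subunit whose RNA is often read as a sign of recent stimulation, had the widest range over pigs of the 8 probe sets. In HP muscle it had a lowest level of 6.67, a median of 9.17 and a highest of 11.53. In LP muscle the levels were 9.05, 10.37, 11.58, 9.14 and 9.52 in replicates 1 to 5. HP replicate 5 stood far below every other pig, and HP replicate 2 and LP replicate 3 stood together at the top, 1 from each diet. From the lowest to the highest pig FOS covered a 30.0-fold range, 29.0-fold within HP and 5.80-fold within LP. The means were 9.12 ± 1.58 (SD, n = 6) in HP and 9.93 ± 1.06 (SD, n = 5) in LP. The difference was 0.81 on the log2 scale with a standard error of 0.76, and its 95% interval ran from -0.87 to 2.49 (limma p = 0.308, exact permutation p = 0.359). That is 1.76-fold in LP over HP with an interval of 0.549 to 5.63. Leaving out 1 pig at a time moved the difference between 0.33, without HP replicate 5, and 1.30, without HP replicate 2. Without HP replicates 1, 2 and 4 together, which were the highest HP pigs on FOS, it was 1.83 and passed limma's test. Leaving out the highest pigs of 1 diet lowers the mean of that diet by construction, and HP replicates 3, 5 and 6 alone remained.

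JUN, the AP-1 partner of FOS, was far steadier. Its HP levels had a minimum of 9.52, a median of 9.78 and a maximum of 10.09, and its LP levels were 9.66, 9.82, 10.76, 9.90 and 10.23. LP replicate 3, which also had the highest FOS, held the highest JUN, and the remaining pigs of both diets lay within the same narrow band. The mean was 9.80 ± 0.22 (SD, n = 6) in HP and 10.07 ± 0.44 (SD, n = 5) in LP, a difference of 0.28 (standard error 0.20, 95% interval -0.17 to 0.72, limma p = 0.196, exact permutation p = 0.206). Without LP replicate 3 it was 0.11. Over all pigs JUN covered a 2.37-fold range.

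EGR1, a zinc finger factor induced by serum, stretch and contraction, was read by 3 probe sets named here A, B and C from the brightest to the dimmest. On A, HP pigs had a lowest level of 8.32, a median of 9.88 and a highest of 11.08, and LP pigs had 10.78, 10.55, 10.97, 9.30 and 10.23. As for FOS, HP replicate 5 was the lowest of all pigs, and HP replicate 2 and LP replicate 3 were the highest. The difference on A was 0.58 (9.79 ± 0.90 (SD, n = 6) in HP, 10.37 ± 0.65 (SD, n = 5) in LP, standard error 0.45, 95% interval -0.41 to 1.57, limma p = 0.226, exact permutation p = 0.268). Probe set B gave 0.45 (standard error 0.43, exact permutation p = 0.348), from 9.39 ± 0.79 (SD, n = 6) to 9.83 ± 0.71 (SD, n = 5). A and B ranked the pigs almost alike, with r = 0.98 between their deviations from the diet means.

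EGR1 C lay near the background, exceeding every negative control of its array in 5 of 6 HP pigs and 4 of 5 LP pigs. Its HP levels had a lowest value of 3.04, a median of 4.41 and a highest of 5.59, and its LP levels were 5.52, 4.93, 6.23, 1.71 and 4.40. LP replicate 4, low on A and B too, was the lowest on C by over 1 log2 unit. The difference on C was 0.30 with a standard error of 0.77 (exact permutation p = 0.729), and its sign turned when LP replicate 3 was left out (-0.12) and with the spike-in level as a covariate (-0.14). The deviations on C followed those on A with r = 0.80 and those on B with r = 0.87, which are descriptions over the same 11 arrays.

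IER2, a nuclear protein of the early response, had the smallest range over pigs of the 8 probe sets, 1.62-fold. HP levels had a lowest value of 8.13, a median of 8.68 and a highest of 8.76, against LP levels of 8.43, 8.40, 8.60, 8.49 and 8.06. In HP, 4 pigs sat close together at the top, and replicates 5 and 6 lay lower. LP minus HP was -0.16 (8.39 ± 0.20 (SD, n = 5) against 8.55 ± 0.26 (SD, n = 6), 95% interval -0.49 to 0.18, limma p = 0.323, exact permutation p = 0.290).

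IER3, which limits cell death under stress and inflammation, had the largest difference relative to its error. HP pigs had a lowest level of 6.17, a median of 7.03 and a highest of 7.89, and LP pigs had 7.27, 5.88, 6.39, 5.62 and 6.47. LP replicate 1 lay inside the upper part of the HP range, while the other 4 LP pigs lay below the HP median. IER3 was 1.59-fold lower in LP by its means, 6.33 ± 0.64 (SD, n = 5) against 6.99 ± 0.71 (SD, n = 6), a difference of -0.67 with a 95% interval of -1.51 to 0.18 (limma p = 0.110, exact permutation p = 0.141). Without LP replicate 1 the difference was -0.90 and passed limma's test, and without HP replicate 3 it was -0.49.

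MYC, a driver of growth and of ribosome synthesis, differed by 0.24 between LP and HP, with a standard error of 0.15. The HP levels had a lowest value of 7.28, a median of 7.50 and a highest of 7.99, and the LP levels were 7.88, 7.76, 7.55, 8.04 and 7.91. In HP, 4 pigs lay below all 5 LP pigs, whereas replicates 2 and 6 lay among them. The means were 7.59 ± 0.27 (SD, n = 6) and 7.83 ± 0.18 (SD, n = 5), and the 95% interval of the difference was -0.10 to 0.57 (limma p = 0.151, exact permutation p = 0.126). As a fold this is 1.18, with an interval of 0.933 to 1.49.

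**Figure D2:**
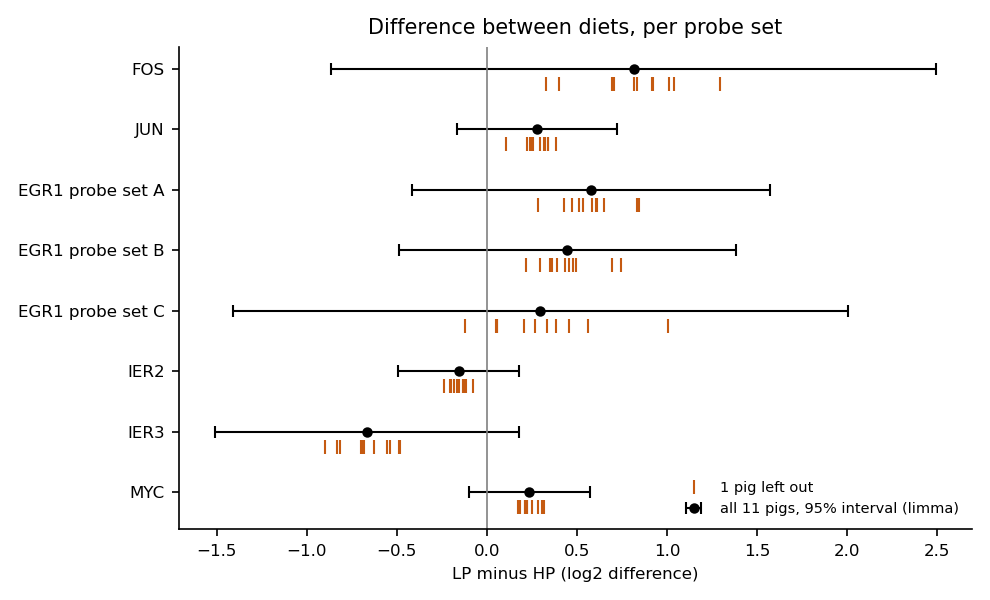
LP minus HP log2 difference (x axis) of each probe set. Black points with bars are the value over all 11 pigs and its 95% interval from limma, and orange ticks are the values with 1 pig left out. All 8 intervals include 0, and the ticks cross 0 for EGR1 C alone.

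The within-diet SD, the spread left after each diet's mean is removed, had a median of 0.28 over the 16849 probe sets above the negative controls on all 11 arrays and a 95th percentile of 0.65. FOS had an SD of 1.37, at the 99.9th percentile, and 18 of these probe sets (0.107%), FOS itself included, spread as widely. EGR1 A stood at 0.80 (98.1st percentile), EGR1 B at 0.76 (97.5th percentile) and IER3 at 0.68 (95.9th percentile). JUN, IER2 and MYC were ordinary in this respect, with 0.33, 0.23 and 0.23, at percentiles 65.2, 34.1 and 34.1. The percentiles describe these arrays and were not tested.

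**Figure D3:**
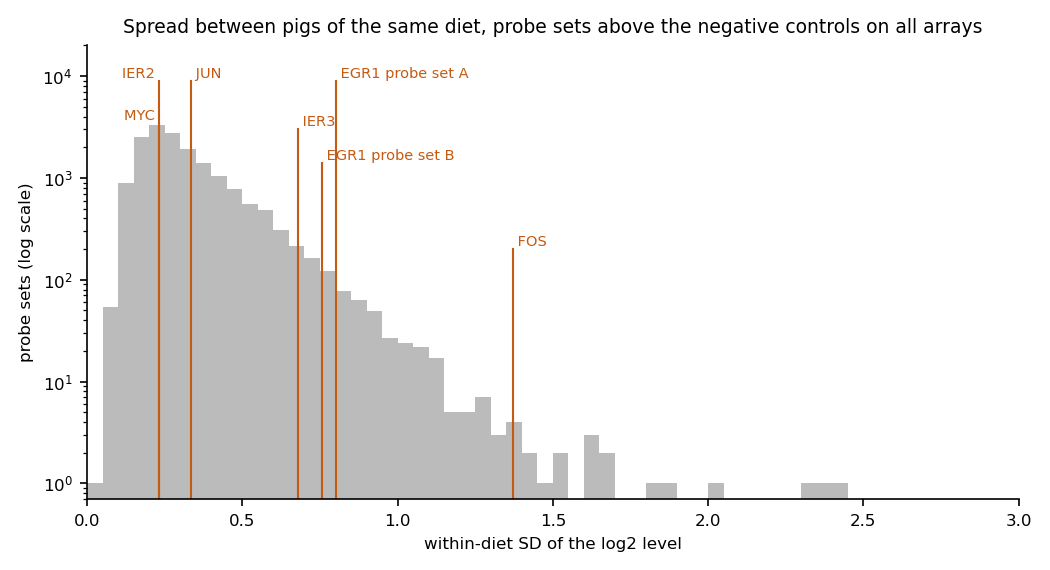
Number of probe sets (y axis, log scale) by within-diet SD of the log2 level (x axis), over the 16849 probe sets above the negative controls on all arrays. Orange lines mark the 7 members among them. FOS, at 1.37, stands in the far tail, EGR1 and IER3 near its start, and JUN, IER2 and MYC in the bulk.

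The same pigs stood out on several genes. HP replicate 5 was the lowest HP pig on FOS, EGR1, IER2, IER3 and MYC, that is on 5 of 6 genes, with deviations from the HP mean of -2.45 for FOS and -1.47 for EGR1. Its JUN level lay 0.08 above the HP mean. HP replicate 2 lay above the HP mean on 6 of 6 genes, by 2.41 for FOS and 1.29 for EGR1. LP replicate 3 lay above the LP mean on 5 of 6, by 1.65 for FOS, 0.69 for JUN and 0.60 for EGR1, and MYC was its exception.

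Whether the genes moved together from pig to pig was asked for the 15 pairs of the 6 genes, with EGR1 read on probe set A, on deviations from the diet means over 11 pigs. P values came from the exact permutation of pigs within diets, two-sided, and no pair passed after Benjamini-Hochberg adjustment over the 15. FOS and EGR1 had the highest correlation, with Pearson r = 0.82 (exact permutation p = 0.0134, adjusted p = 0.201) and Spearman rho = 0.57 (p = 0.0845, adjusted p = 0.372). Leaving out the 2 pigs farthest from the median of FOS, HP replicate 5 and LP replicate 3, gave r = 0.61. Leaving out the 2 pigs with the largest FOS deviations instead, HP replicates 2 and 5, gave r = 0.44 (exact permutation p = 0.402). The size of r thus depends on these pigs. Leaving out pigs far out on FOS narrows its range, which can lower r even where a relation holds. The fall therefore cannot decide whether the relation rests on them.

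FOS and IER2 had r = 0.67 (exact permutation p = 0.0417, adjusted p = 0.209; rho = 0.63, p = 0.0527, adjusted p = 0.372). Here r was 0.23 without HP replicate 5 and LP replicate 3 and 0.48 without HP replicates 2 and 5, with the same limit. EGR1 and IER3 had r = 0.65 (exact permutation p = 0.0418, adjusted p = 0.209) and rho = 0.72 (p = 0.0223, adjusted p = 0.335), and r was 0.67 without the 2 pigs farthest on the EGR1 level, HP replicates 2 and 5, but 0.36 without the 2 of largest EGR1 deviation, HP replicate 5 and LP replicate 4. FOS and JUN, the AP-1 partners, had r = 0.46 (exact permutation p = 0.125, adjusted p = 0.376) and rho = 0.51 (p = 0.124, adjusted p = 0.372), with r = 0.45 without HP replicate 5 and LP replicate 3 and 0.75 without HP replicates 2 and 5. FOS and MYC had r = 0.10 (exact permutation p = 0.799, adjusted p = 0.918) and rho = -0.05 (p = 0.910, adjusted p = 0.968), with r = -0.04 and -0.81 in the same 2 settings, so that its sign and size depend on which pigs are kept. Over the 15 pairs r ran from -0.34, for JUN and MYC, to 0.82.

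**Figure D4:**
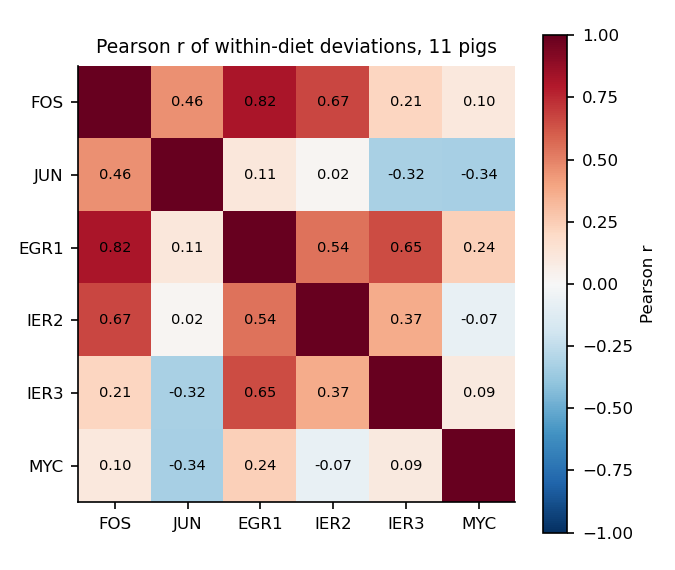
Pearson r of within-diet deviations over 11 pigs for the 15 pairs of member genes, red for positive and blue for negative. The highest values are those of FOS and EGR1 (0.82), FOS and IER2 (0.67) and EGR1 and IER3 (0.65), and most pairs with JUN or MYC lie near or below 0.

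The genes were set against array measures in 18 relations, of which none passed after adjustment. IER2 was lower on arrays with a larger 3′ minus 5′ GAPDH signal (r = -0.84, exact permutation p = 0.00743, adjusted p = 0.134; rho = -0.70, p = 0.0297, adjusted p = 0.535), and r was -0.76 without the 2 arrays farthest on that measure. FOS leaned the same way (r = -0.56, exact permutation p = 0.0958, adjusted p = 0.863; rho = -0.61, p = 0.0655, adjusted p = 0.589; r = -0.73 without the 2 arrays). With the 3′ minus 5′ actin signal r was not negative. It was 0.28 for FOS (exact permutation p = 0.457, adjusted p = 0.940, rho = 0.36) and 0.07 for IER2 (exact permutation p = 0.836, adjusted p = 0.940, rho = 0.27). Without HP replicate 4 and LP replicate 1, farthest on actin, r was 0.23 and -0.08. Without HP replicates 2 and 4, of largest actin deviation, it was -0.20 and -0.40. The part of RNA quality in the spread of IER2 and FOS was not tested. With the spike-in means, FOS had r = 0.27 (exact permutation p = 0.537, adjusted p = 0.940; rho = 0.35, p = 0.325, adjusted p = 0.830), which became -0.15 without the 2 arrays farthest in spike-in level, HP replicates 2 and 4. EGR1 had r = -0.06 (exact permutation p = 0.887, adjusted p = 0.940; rho = -0.18, p = 0.626, adjusted p = 0.830) and IER3 r = -0.29 (exact permutation p = 0.426, adjusted p = 0.940; rho = -0.19, p = 0.601, adjusted p = 0.830). Without these 2 arrays r was -0.70 for EGR1 and -0.79 for IER3, and without the 2 of largest spike-in deviation, HP replicates 3 and 6, it was 0.41 for FOS, 0.19 for EGR1 and 0.11 for IER3.

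The genes outside the group whose pig-to-pig pattern was most like that of FOS were FN3KRP, DUSP1, VPS41, MAGED1, ADAM17 and PHLDB1, from 7856 candidate probe sets. FN3KRP, a kinase that removes sugars from proteins, had r = 0.95 over 11 pigs, and DUSP1, a phosphatase of MAP kinases that is itself an immediate early gene, r = 0.93. VPS41, MAGED1, ADAM17 and PHLDB1 followed with 0.92, 0.91, 0.88 and 0.87. DUSP1 had r = 0.82 without HP replicate 5 and LP replicate 3 and 0.81 without HP replicates 2 and 5. Its level was lowest of all 11 pigs in HP replicate 5, at 11.15, and highest in HP replicate 2, at 12.16. These r are descriptions over pigs that share their arrays and the search that picked the genes. None of the 6 passed between the diets, with DUSP1 at -0.30 (limma p = 0.144, exact permutation p = 0.145).

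**Figure D5:**
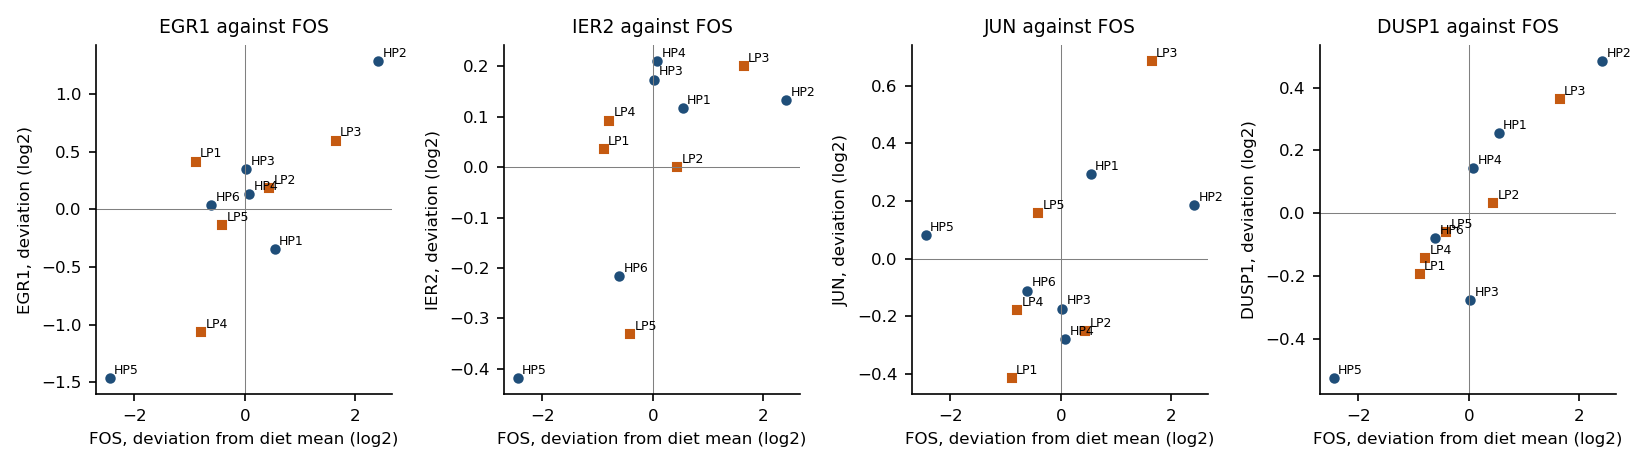
Deviation from the diet mean (log2) of EGR1, IER2, JUN and DUSP1 (y axes, each with its own scale) against that of FOS (x axis), 1 point per pig, with circles for HP and squares for LP. HP5 lies at the lower left for EGR1, IER2 and DUSP1 but not for JUN. The panels share the FOS axis, so each pig, HP2 and LP3 at the right included, has the same x position in all of them.

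Other genes of the pathway were read by their brightest probe set, and over all 6765 genes read in this way 4.73% passed, 1.57% higher and 3.16% lower, with 57.5% below 0 and a median of -0.04. Of the 14 other AP-1 subunits listed, 4 were measured and 1 rose, 0 fell and 3 did not pass, with a median of 0.79. ATF3, a stress-induced AP-1 partner, was 1.93-fold higher in LP (log2 difference 0.95 ± 0.34 (SE), limma p = 0.0179, exact permutation p = 0.0303). Its LP levels were 10.33, 10.37, 11.40, 10.57 and 10.90, and its HP levels ran from 8.72 in replicate 6 to 10.76 in replicate 2. HP replicate 5, the lowest pig on FOS and EGR1, had an ATF3 level of 10.22, above 4 of the other 5 HP pigs. Over the 11 pigs ATF3 had r = 0.42 with FOS (rho = 0.35), and r = 0.77 without HP replicate 5 and LP replicate 3, which was not tested. FOSL2 and FOSL1, relatives of FOS, differed by 0.63 and 1.38 and did not pass, FOSL1 being above the controls on 1 HP and 3 LP arrays, and ATF7 differed by -0.09. FOSL2 passed without HP replicates 1, 2 and 4 (0.90) and FOSL1 without LP replicate 5 (2.26).

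Of 23 other immediate early transcription factors, 18 were measured, 1 rose, 1 fell and 16 did not pass, with a median of -0.13 and 14 below 0. IER5, a relative of IER2, was 1.49-fold higher in LP (log2 difference 0.58 ± 0.23 (SE), limma p = 0.0266, exact permutation p = 0.0368). Its r with FOS was 0.62 (rho = 0.68), and 0.73 without HP replicate 5 and LP replicate 3, which was not tested. The call for IER5 was lost without HP replicate 3 (0.48), LP replicate 2 (0.49), LP replicate 3 (0.48) or LP replicate 5 (0.55). The gene that fell was EGR4, which lay above the controls on no array, so no fold is given. NR4A3, a nuclear receptor induced by exercise, differed by 0.99 (limma p = 0.0869, exact permutation p = 0.115). It passed when HP replicate 1 (1.30) or LP replicate 1 (1.34) was left out. KLF4 differed by -0.29 and did not pass.

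Of 26 feedback genes, which damp early signalling or the RNAs it makes, 12 were measured, 2 rose, 0 fell and 10 did not pass, with a median of 0.08. The pair that rose were BTG2 and RRAD, with log2 differences of 1.24 and 0.80 (exact permutation p = 0.00649 and 0.00866). From pig to pig BTG2 had r = 0.08 and RRAD r = 0.13 with FOS. PPP1R15A differed by 0.28 and did not pass. Of 24 secreted and early effector genes, 18 were measured and none passed, with a median of -0.20. THBS1, an adhesive matrix protein, was nearest (-0.59, limma p = 0.0506, exact permutation p = 0.0736), followed by ODC1, the starting enzyme of polyamine synthesis, at -0.27, LMNA at -0.31 and RHOB at -0.23. THBS1 passed in 8 of the alternatives, with -0.85 when the spike-in level was a covariate and -0.67 to -0.72 without HP replicate 2, HP replicate 5, LP replicate 1 or LP replicate 2.

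Upstream of the early genes, 12 of 34 listed kinases and factors were measured, 1 rose, 0 fell and 11 did not pass, with a median of -0.04. The 1 was CREB1, a calcium and cAMP responsive factor that acts on the FOS promoter (0.30 ± 0.12 (SE), limma p = 0.0324, exact permutation p = 0.0173). It was lost without HP replicate 1, 2 or 6 or LP replicate 1 or 3 (0.24 to 0.29 in these 5 fits). NFKB1 differed by 0.53, MAP2K6 by 0.27 and RPS6KA3 by 0.25, and none of the 3 passed. NFKB1 passed in 6 of the alternatives, among them those that left out HP replicate 4 (0.73), LP replicate 3 (0.65) or HP replicates 1, 2 and 4 together (0.79). Without these 3 arrays CREB1 was 0.21 and did not pass.

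Among MYC partners 4 of 14 were measured, 0 rose, 1 fell and 3 did not pass, with a median of 0.19. MXI1, which competes with MYC for MAX, fell by 0.40 (standard error 0.17, limma p = 0.0398, exact permutation p = 0.00866), a call lost in 6 of the 11 fits with a pig left out (-0.25 without LP replicate 1) and also when HP replicates 1, 2 and 4 were dropped (-0.28). FBXW7, which marks MYC for destruction, differed by 0.24, MXD3 by 0.24 and MXD4 by 0.14. FBXW7 passed after quantile normalization (0.29) and with the spike-in covariate (0.39). Of 24 textbook MYC targets 20 were measured, 1 rose, 0 fell and 19 did not pass, with a median of -0.00. The riser was BOP1, a ribosome assembly factor (0.71 ± 0.25 (SE), limma p = 0.0168, exact permutation p = 0.0152), while NME1 differed by 0.34, EIF4E by 0.27 and ODC1 by -0.27. Without HP replicates 1, 2 and 4 BOP1 was 0.54 and did not pass.

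Of 16 heat shock genes, which respond to stress in another way, 13 were measured and none passed, although 12 lay below 0, with a median of -0.17. CRYAB (-0.24), HSP90AB1 (-0.18) and HSP90AA1 (-0.18) lay just above 0 without HP replicates 1, 2 and 4 (0.049, 0.013 and 0.034), and HSPE1 differed by -0.17. After quantile normalization CRYAB and HSP90AA1 were at 0.0051 and 0.021, so that their sign depends on the scaling.

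Markers of the other cells that the muscle could hold were set beside these results. Of the 4 adipocyte markers measured none passed limma's test, with mean levels of 6.96 to 8.10 in HP and 7.34 to 8.27 in LP, and the same was true of the 6 endothelial (8.48 to 9.10 and 8.57 to 8.92), the 4 macrophage (6.73 to 7.99 and 6.52 to 7.58) and the 4 fibroblast markers (9.24 to 9.62 and 8.88 to 9.46). Nearest were LEP of the adipocyte list, at 0.74 (limma p = 0.0533, exact permutation p = 0.0887), and DCN of the fibroblast list, at -0.28 (limma p = 0.0525). DCN passed the exact permutation test (p = 0.0346). The study reported more intramuscular fat and higher LEP on the LP diet. No neutrophil marker of the 3 measured lay above the controls on all arrays. In the lymphocyte list CD79B alone of 6 passed, with levels above the controls on no array, and none passed among the satellite cell, red blood cell and nerve markers. In the smooth muscle and pericyte list 1 of 5 passed, RGS5, which was lower in LP (-0.44, limma p = 0.00804, exact permutation p = 0.00866), with list means of 9.40 to 9.87 in HP and 9.27 to 9.52 in LP. The highest r with FOS over 11 pigs was 0.74 in that list, for TAGLN, and 0.67 in the endothelial list, for CLDN5 (0.24 and 0.53 without HP replicates 2 and 5). The lowest was 0.14 in that list, for RGS5, and in the endothelial list KDR had -0.14 and TEK -0.10. The median r with FOS was 0.46 and 0.36 over these lists and 0.32 over the fibre markers. The part of these cells in the spread of FOS was not tested.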

How the data were processed

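RNA from the *M. semimembranosus* of 11 gilts, 6 HP and 5 LP, was measured on 1 array per pig. The values deposited by the authors are log2 expression levels per probe set. The study's methods name R, Bioconductor and puma, and how background was corrected and arrays were normalised is not given in the sources used here. The levels were used as deposited, and scanner intensities were not used. The array holds 24123 probe sets, of which 124 are controls and were not tested, and the platform annotation gave 1 symbol for 10069, several for 198 and none for 13732.

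LP minus HP was fitted for all probe sets in R 4.3.3 with limma 3.58.1 (constant prior, two-sided), with calls at the study's threshold (unadjusted p of at most 0.05), since puma needs probe-level uncertainty that these levels lack. After Benjamini-Hochberg adjustment 0 probe sets passed (smallest adjusted p = 0.644). Single values were tested again by exact permutation of the pigs between diets, two-sided, and correlations by an exact permutation within diets. An array was above background where a level exceeded its highest negative control. The fit was tested on simulated data with known changes. The number of arrays limits the precision. With 1 array per pig, the spread between pigs cannot be told apart from that between arrays. The limma p values set each difference against this joint spread.

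Genes named are the members, the 4 of each pathway list with the smallest limma p, and the 6 genes most correlated with FOS. DUSP1, BTG2 and ATF3 come under this rule, and the markers LEP, DCN, RGS5, TAGLN, CLDN5, KDR and TEK were chosen after their values were seen. The members, lists and alternatives were chosen with earlier results of these data known, so they are not independent evidence. Alternatives were quantile normalization, median centring, the spike-in level as a covariate, array weights, a trended robust prior, removal of probe sets under the median, a floor at the 20th percentile, a block for the replicate number, averaging the probe sets of EGR1, each pig left out, and HP replicates 1, 2 and 4 left out together. The files name no genome build and the tables at hand hold no sequence, so neither coordinates nor sequences are given.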

Additional observations from a re-analysis of the deposited data

How the results depend on the processing

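Of 167 values of the members under the alternatives, 165 kept their direction. The trended prior, the exact permutation and the removal of dim probe sets change the test and not the difference, so their values agree by construction. Median centring and raised low values left most members almost unchanged too, so the count does not measure how firm the directions are. EGR1 C alone reversed, to -0.14 with the spike-in covariate and to -0.12 without LP replicate 3. The count of members past the threshold stayed at 0 except for 1 without HP replicates 1, 2 and 4 (FOS, 1.83) and 1 without LP replicate 1 (IER3, -0.90), so that it ran from 0 to 1 with a pig left out. Each of these fits leaves out the highest pigs of 1 diet on the gene that passed. With a pig left out FOS ran from 0.33 to 1.30, JUN from 0.11 to 0.38, EGR1 A from 0.28 to 0.84, EGR1 B from 0.22 to 0.75, EGR1 C from -0.12 to 1.01, IER2 from -0.24 to -0.08, IER3 from -0.90 to -0.49 and MYC from 0.17 to 0.31. No pair of members passed after adjustment under any alternative run. One of these, leaving out the 2 pigs with the largest FOS deviations, was chosen after seeing the data. Over all probe sets 1227 passed, against 710 with dim probe sets left out, 1884 without HP replicates 1, 2 and 4, and 1066 to 1521 with a pig left out. Of the calls 58.0% were lower in LP, against 44.9% with the spike-in covariate and 40.1% without HP replicates 1, 2 and 4.

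The labels do not say whether pigs of the same replicate number form a pair or block. The correlation of same-numbered deviations ran from -0.11 to 0.10, which cannot settle it. HP replicate 6 has no LP partner, so blocked differences are those without it: FOS 0.69, EGR1 A 0.59, IER3 -0.69 and MYC 0.31. With the block 1232 probe sets and 0 of the 8 member probe sets passed. ATF3 (0.74), CREB1 (0.29), MXI1 (-0.44) and BOP1 (0.79) did not pass and NFKB1 (0.52) did.

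Of the other genes named, ATF7 turned to 0.12 with the spike-in covariate and 0.29 without HP replicates 1, 2 and 4, and ran from -0.28 to 0.046 with a pig left out. MXD3 turned to -0.25 and -0.47 in the same settings and ran from -0.072 to 0.67. EGR4 was 0.025 with low values raised. Calls gained under an alternative were those of THBS1 with the spike-in covariate (-0.85), with low values raised, with the trended prior and with dim probe sets left out, NFKB1 with the spike-in covariate (0.77) and array weights (0.53), FBXW7 with quantile normalization (0.29) and the spike-in covariate (0.39), KLF4 with array weights (-0.41), and NR4A3 with dim probe sets left out. CREB1 and MXI1 were lost with the spike-in covariate (0.25 and -0.29), CREB1 also with the trended prior, and EGR4 with both of these and without HP replicates 1, 2 and 4 (-0.52). With a pig left out, calls were also gained by DUSP1 and ODC1 (-0.40 and -0.34, without HP replicate 5), PPP1R15A and RHOB (0.40 and -0.31, without LP replicate 4), NME1 (0.43, without LP replicate 5) and EIF4E (0.38, without LP replicate 3), and EGR4 was lost when HP replicate 4 or either of LP replicates 2 and 5 was dropped (-1.24, -1.30 and -1.30). Quantile normalization put CRYAB at 0.0051 and HSP90AA1 at 0.021, and leaving out HP replicates 1, 2 and 4 put CRYAB at 0.049, HSP90AA1 at 0.034 and HSP90AB1 at 0.013. No cause of these changes was tested. The wide spread of FOS (SD 1.37) left its difference with an interval from -0.87 to 2.49.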

Other observations

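Among genes above the negative controls on all arrays, 136 of 5618 (2.42%) had r of at least 0.7 with FOS over the 11 pigs, FOS itself and EGR1 included, and the median r was 0.15. In the pathway lists these were DUSP1, ODC1 (r = 0.83), the orphan nuclear receptor NR4A2 (r = 0.72) and DUSP6, a phosphatase of ERK kinases (r = 0.71). Without the 2 pigs farthest on FOS, HP replicate 5 and LP replicate 3, r was 0.61 for ODC1, 0.24 for NR4A2 and 0.52 for DUSP6, and without HP replicates 2 and 5, which had the largest FOS deviations, it was 0.64, 0.56 and 0.35. NR4A2 and DUSP6 were picked after their values were seen and have no test.

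Wide spread between pigs of the same diet was also found in other early genes, not all of which followed FOS. HBEGF, a growth factor of the EGF family, had a within-diet SD of 0.94 and r = -0.39 with FOS, and the lipopolysaccharide and cortisol responsive factor CEBPD had an SD of 0.68 and r = -0.49. NR4A3, with an SD of 0.94 and levels from 7.12 in HP replicate 5 to 10.32 in LP replicate 3, had its extremes in the same pigs as FOS. Its r with FOS was 0.50 (rho = 0.58), with 0.09 without HP replicate 5 and LP replicate 3, and 0.60 without HP replicates 2 and 5. These genes too were picked after their values were seen, and no cause of their spread was tested.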
